A study of Mus musculus with 5 samples.

Results

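Laminins are the glue of the basement membrane, and integrins are the receptors with which cells hold on to them. The expression of all mouse laminin and integrin chains was examined in RNA-seq data from neural stem cells (NSCs) and STO fibroblasts. The genes were taken by symbol: the laminin chains Lama, Lamb and Lamc, the integrin α chains Itga, and the integrin β chains Itgb. These families were chosen with earlier results of these data known. Of 24844 genes in the files, 37 matched, comprising 11 laminin chains, 18 integrin α chains and 8 integrin β chains. They were listed as 53 RefSeq transcripts, and each gene lay at a single locus.

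The study compared chromosome structure and expression among stem cells, and 5 mouse RNA-seq samples of 2 cell types were used here. The NSC group (n = 2) consisted of primary neural stem cells at passages 5 to 8, from the C57BL/6 strain and, by the study's methods, from embryonic cortex. These cells were grown as a monolayer on dishes coated with poly-L-ornithine and laminin, in serum-free medium with EGF, bFGF, heparin and B27. The STO group (n = 3) consisted of SIM embryonic fibroblasts, a long-established line that serves as a feeder for germline stem cells, at more than 30 passages, labelled C57BL/6 and grown in DMEM with fetal bovine serum. The name STO stands for cells resistant to thioguanine and ouabain, a property of the line. Cell type, this selected resistance, medium, dish coating and passage differed together between the groups and cannot be told apart, and no further treatment is given in the labels. No source states that replicates came from separate cultures, so p-values measure only the spread between these samples, which may be technical.

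Each laminin is a secreted trimer of an α, a β and a γ chain, and many but not all laminins assemble into a sheet around cells. Each integrin is a dimer of an α and a β chain that spans the membrane, binds laminin, collagen, fibronectin or another ligand outside the cell, and connects to actin inside it. In the developing cortex, neural stem cells touch the laminin-rich surface of the brain and the vessels through such receptors, whereas fibroblasts are known for depositing matrix and for binding fibronectin.

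The labels were checked with marker genes. All 7 neural stem cell markers had a mean of at least 1 FPKM (fragments per kilobase of transcript, scaled to the mapped fragments of the library, so that levels of genes of unlike length can be compared) in NSCs and 0 of 7 did in STO cells, where Sox2, Pax6, Olig2 and Fabp7 were listed at 0. All 7 fibroblast markers had a mean of at least 1 FPKM in STO cells, and 1 of 7 did in NSCs, where Pdgfra, also a gene of oligodendrocyte precursors, was at 30.3 FPKM (347 in STO cells) and Col3a1 and Dcn were listed at 0. The NSC samples also held markers of differentiated neural cells, with summed FPKM of 116 in both samples for 5 neuron markers (12.3 to 12.9 in STO cells), 70.4 to 71.4 for 4 astrocyte markers (0.242 to 0.432) and 120 to 122 for 4 oligodendrocyte markers (0.961 to 1.14), and their part in the NSC values was not tested. Map2 made up 101 of the neuron sum, whereas Tubb3 did not pass (8.69 FPKM in NSCs and 8.30 in STO cells, limma adjusted p = 0.476). Of 5 endothelial and 5 epithelial markers, 0 reached 1 FPKM in either cell type. Of 6 leukocyte and microglia markers, 1 did so in NSCs (Cd68, 2.14 and 3.10 FPKM) and 0 in STO cells. Of 4 Schwann cell and neural crest markers, which summed to 34.9 to 36.2 FPKM in NSCs and 1.09 to 1.22 in STO cells, 2 did so in NSCs, and both also stand on the glial lists. The deposited intervals implied between 15223341 and 22271895 fragments per sample. Replicates of the same cell type correlated at 0.994 to 0.995 across 11701 genes, against 0.579 to 0.586 between cell types.

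To show what lies in front of genes that differed, windows of 250 bases were read from the mm9 genome for 4 chains. Each window lies upstream of the first base of the transcript with the highest FPKM. Only the 12 of 18 called genes whose window holds no annotated exon were considered. Among these 12, the largest rise and the largest fall in STO cells were taken for laminins and for integrins. Lamb1 (3.90), Itga3 (3.54) and Itgb8 (−3.59) moved further than the genes taken and were left out by this rule. The choice rests on log2(FPKM + 1): with a pseudocount of 0.1, Itgb7 (3.87) rose more than Itga5 (2.19), and Itga4 (−4.36) fell more than Itga7 (−2.30). Lama4 encodes the laminin α4 chain and lies on the plus strand, with its window at chr10:38685071-38685320. Lama5 encodes the laminin α5 chain and lies on the minus strand, with its window at chr2:179960565-179960814. Itga5, the fibronectin receptor α chain, lies on the minus strand with its window at chr15:103197223-103197472, and Itga7, a laminin receptor α chain, lies on the plus strand with its window at chr10:128370619-128370868. Each sequence is written 5′ to 3′ on the strand of its gene. Capitals mark a GC box (GGGCGG on either strand) or the letters TATAAA (on either strand). Matches were marked at any distance from the transcript start, so TATAAA here need not be a working TATA box.
Lama4: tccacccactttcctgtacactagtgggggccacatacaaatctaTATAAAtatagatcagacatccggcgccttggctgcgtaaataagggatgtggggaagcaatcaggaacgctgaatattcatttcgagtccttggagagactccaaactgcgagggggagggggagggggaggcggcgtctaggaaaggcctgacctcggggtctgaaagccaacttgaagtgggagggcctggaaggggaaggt
Lama5: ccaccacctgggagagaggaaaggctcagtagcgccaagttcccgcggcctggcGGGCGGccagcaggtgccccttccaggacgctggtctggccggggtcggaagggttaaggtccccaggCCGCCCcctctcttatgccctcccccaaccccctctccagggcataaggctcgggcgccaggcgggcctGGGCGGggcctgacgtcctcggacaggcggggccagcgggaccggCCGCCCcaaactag
Itga5: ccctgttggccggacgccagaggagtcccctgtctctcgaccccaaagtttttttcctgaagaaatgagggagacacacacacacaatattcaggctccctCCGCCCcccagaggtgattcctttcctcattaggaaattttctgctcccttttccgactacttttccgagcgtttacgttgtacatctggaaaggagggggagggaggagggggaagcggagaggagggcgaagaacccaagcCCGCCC
Itga7: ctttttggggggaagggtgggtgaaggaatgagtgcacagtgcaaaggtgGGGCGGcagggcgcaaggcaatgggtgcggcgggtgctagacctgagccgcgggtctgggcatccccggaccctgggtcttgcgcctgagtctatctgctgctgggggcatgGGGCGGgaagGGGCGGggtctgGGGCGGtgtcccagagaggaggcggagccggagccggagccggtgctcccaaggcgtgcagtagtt

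The Lama4 window held 9 CpG dinucleotides, a TATAAA and 0 GC boxes, whereas the Lama5 window held 19 CpG and 4 GC boxes. The Itga5 window held 11 CpG and 2 GC boxes, and that of Itga7 held 16 CpG and 4 GC boxes. Over all 37 genes, 17 windows held a GC box, 1 held TATAAA (Lama4) and 5 held CCAAT on either strand. Among 19742 windows of the same length in front of genes in mm9, the shares were 44.4%, 11.6% and 35.3%. The number of CpG had a median of 12 over the 37 genes (range 0 to 24), of 14 in the 19 genes with a mean of at least 1 FPKM in either cell type and of 8.5 in the other 18, against a median of 10 (quartiles 3 and 19) over all windows. These are matches of letters in a fixed window, and binding of any factor was not measured.

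Of the 37 genes, 19 had a mean of at least 1 FPKM in NSCs or in STO cells, and these were compared between the cell types with limma on log2(FPKM + 1). Of the 19, 2 reached this level only in NSCs (Lama5 and Itga4) and 4 only in STO cells (Itga3, Itga2b, Itgb2 and Itgb7). Such genes entered through the group where they were high, so their difference and lack of overlap are partly set by this filter. The same holds for their p-values given below. The same filter was applied to all genes. In the limma comparison 18 of the 19 passed the threshold (Benjamini-Hochberg adjusted p under 0.05), with 9 higher and 9 lower in STO cells. The 2 cell types were so unlike that 85.7% of all 12278 genes tested passed as well (41.9% higher and 43.7% lower), so the count itself does not set laminins and integrins apart. With an absolute difference of at least 1 on the log2 scale, 7 of the 19 were higher and 4 of the 19 lower, against 38.4% of all genes (17.1% higher and 21.3% lower). In 18 of the 19 genes the samples of the cell types did not overlap, which also held for 90% of all genes tested. The 5 laminin chains tested had 4 higher and 1 lower in STO cells, with a median difference of 2.94. The 14 integrin chains tested had 5 higher, 8 lower and 1 not called, with a median of −0.19, against −0.02 over all genes tested. In bulk RNA, fewer cells with a transcript and less transcript per cell cannot be told apart.

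**Figure D1:**
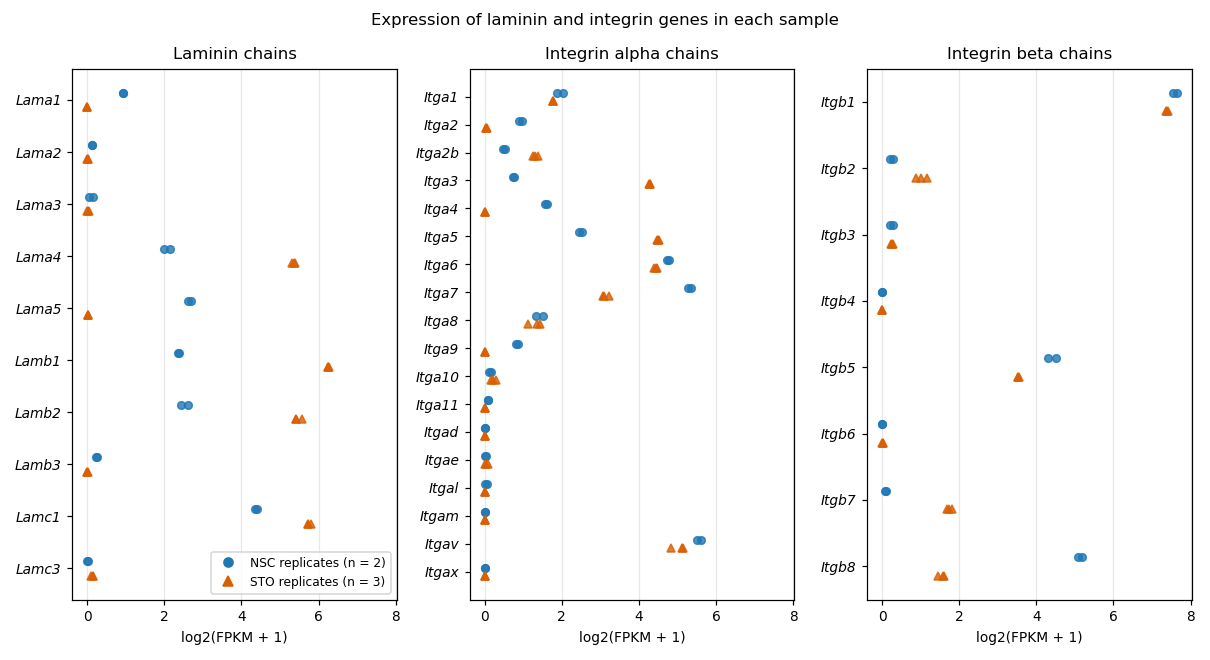
Expression of the laminin and integrin genes, with 1 of the 37 not shown, as log2(FPKM + 1), the pseudocount being 1, in each NSC sample (circles, n = 2) and each STO sample (triangles, n = 3). Lama4, Lamb1, Lamb2, Itga3 and Itga5 lie further right in STO cells, whereas Lama5, Itga7 and Itgb8 lie further right in NSCs, and 18 of the 37 genes stay under a mean of 1 FPKM in both.

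The laminin α chain, which carries the main cell-binding domains, was not the same in the 2 cell types. Lama4, which encodes an α chain typical of vessel walls and mesenchymal tissue (chr10:38685321-38829994, 38 exons in the longest annotated model), had 2.96 and 3.43 FPKM in the NSC samples and 38.6, 40.2 and 40.9 FPKM in the STO samples. All STO samples lay above both NSC samples, and the mean was 12.5-fold higher (a difference of 3.29 ± 0.07 SE on the log2 scale, limma adjusted p = 5.05e-08). Lama5, which encodes the broadly used α chain of epithelial and stem cell niches (chr2:179911078-179960564, 79 exons), had 5.50 and 5.18 FPKM in NSCs and only 0.00779, 0.00679 and 0.0128 FPKM in STO cells. These STO values rested on about 2, 2 and 5 fragments, so no fold is given, and the difference was −2.65 ± 0.05 (limma adjusted p = 2.42e-08). Lama1, the α chain of the earliest embryonic basement membranes, had 0.895 and 0.903 FPKM in NSCs and was listed at 0 in all STO samples. Lama2, the muscle and nerve α chain, stayed at 0.0837 to 0.0982 FPKM in NSCs and 0.00398 to 0.0180 in STO cells. Lama3, the epidermal α chain, stayed at 0.0393 to 0.105 FPKM in NSCs and at most 0.0240 in STO cells.

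As shares of the summed FPKM of the 5 α chains, Lama5 made up 55.6% ± 2.69 (SD, n = 2), Lama4 33.3% ± 3.28 and Lama1 9.37% in NSCs, whereas Lama4 alone made up 99.9% ± 0.04 (SD, n = 3) in STO cells. The summed α chain level was 9.60 ± 0.05 FPKM in NSCs and 39.9 ± 1.13 in STO cells.

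The main β and γ chains were also higher in STO cells. Lamb1, the common embryonic β chain (chr12:31950159-32014504), had 4.08 and 4.17 FPKM in NSCs and 76.2, 74.4 and 75.1 FPKM in STO cells. The mean was 18.2-fold higher, and the difference of 3.90 ± 0.05 (limma adjusted p = 7.37e-09) was the largest rise of the 19 genes on the log2(FPKM + 1) scale. With a pseudocount of 0.1, Itga3 (4.59) rose more than Lamb1 (4.16). Lamb2, the β chain of synapses and kidney filters (chr9:108382193-108392861), had 4.37 and 5.15 FPKM in NSCs and 46.7, 41.6 and 41.4 in STO cells, a 9.09-fold higher mean. Lamc1, the γ chain shared by most laminins (chr1:155066052-155179916), had 19.4 and 20.0 FPKM in NSCs and 52.0, 54.5 and 51.9 in STO cells, a 2.67-fold higher mean (difference 1.37 ± 0.05). For each of the 3 genes, every STO sample lay above both NSC samples.

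Lamb1 and Lamb2 shared the β chain level about evenly in NSCs (45.6% ± 2.45 and 52.4% ± 2.41), and Lamb1 took the larger share in STO cells (63.5% ± 1.34 against 36.5% ± 1.33). Lamc1 held 99.5% of the γ chain level in NSCs and 98.2% in STO cells. Lamb3, which pairs with Lama3 in skin, was at 0.166 and 0.188 FPKM in NSCs and at most 0.0221 in STO cells. Lamc3 was at most 0.111 FPKM in any sample.

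**Figure D2:**
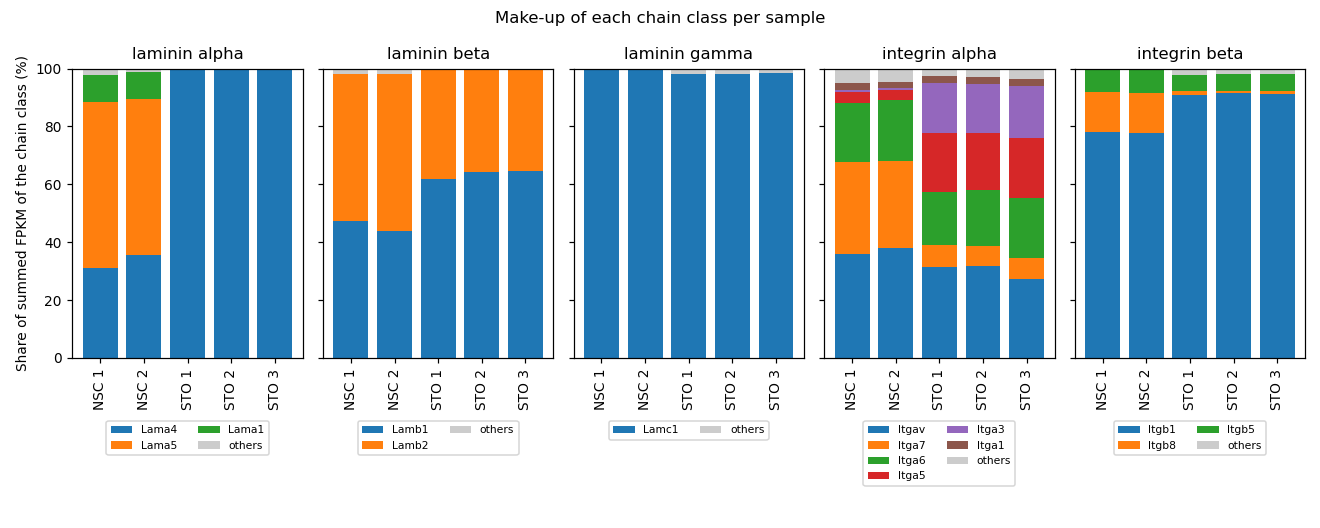
Share of each chain in the summed FPKM of its class (%), for each sample, with chains under 2% in both cell types joined as others. Lama4 fills the laminin α bar in STO cells, where Lama5 is the largest block in NSCs, and Itga3 and Itga5 widen in the integrin α bars of STO cells while Itga7 narrows.

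A trimer can be no more abundant than its scarcest chain, so the lowest chain was taken for 14 known laminin trimers, a list drawn up from general knowledge after the values were seen. In NSCs 4 of the 14 had all chains at a mean of at least 1 FPKM: laminin 411, 421, 511 and 521, which carry the α4 or α5 chain, the β1 or β2 chain and the γ1 chain. The lowest chain was at 3.20 ± 0.33 FPKM for laminin 411 and 421 (Lama4), at 4.12 ± 0.06 for laminin 511 (Lamb1) and at 4.76 ± 0.55 for laminin 521 (Lamb2). In STO cells 2 of the 14, laminin 411 and 421, had all chains at that level, and their lowest chain, Lama4, was at 39.9 ± 1.14 FPKM. Laminin 511 and 521 had Lama5 as the lowest chain in STO cells, at 0.00912 ± 0.0032 FPKM. These are RNA levels, and no protein or assembled trimer was measured.

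The 3 laminin-binding integrin α chains, Itga3, Itga6 and Itga7, differed to unlike extents. Itga3, a receptor for laminins with an α3 or α5 chain (chr11:94905789-94938125), had 0.694 and 0.655 FPKM in NSCs and 18.7, 18.7 and 18.2 FPKM in STO cells. Its mean was 27.5-fold higher in STO cells, without overlap (difference 3.54 ± 0.05, limma adjusted p = 1.27e-08). Itga7, the laminin receptor best known from muscle (chr10:128370869-128395340), ran the other way with 39.9 and 37.9 FPKM in NSCs and 8.35, 7.61 and 7.47 FPKM in STO cells, a 4.98-fold higher mean in NSCs (difference −2.18 ± 0.06, limma adjusted p = 2.80e-07). Itga6, a marker of many stem cells (chr2:71624996-71696484), was high in both, with 25.7 and 26.7 FPKM in NSCs and 19.9, 21.1 and 20.7 FPKM in STO cells. Its samples did not overlap, but the difference was small (−0.34 ± 0.05, limma adjusted p = 0.00101).

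The sum for Itga6 concealed a difference between its transcripts. The files name transcripts only by RefSeq identifier, and which protein isoform each encodes was not determined here. NM_001277970 had 9.37 and 12.6 FPKM in NSCs, or 41.7% ± 7.54 (SD, n = 2) of the gene, and was listed at 0 in all 3 STO samples. NM_008397 had 16.4 and 14.2 FPKM in NSCs and 19.9, 21.1 and 20.7 FPKM in STO cells. For Itga7, NM_001330160 was listed at 0 in both NSC samples and had 3.45, 3.22 and 3.37 FPKM in STO cells, or 42.9% ± 1.94 (SD, n = 3) of the gene. The transcript NM_008398 carried all of the level in NSCs (39.9 and 37.9 FPKM) and 4.90, 4.39 and 4.10 FPKM in STO cells. So Itga6 was split between a pair of transcripts in NSCs and Itga7 in STO cells, while each rested on a single transcript in the other cell type. Such splits are estimates by Cufflinks from shared exons, an exact 0 can be a failed estimate, and no test was made. For Itga3, NM_013565 held 100% of the gene in every STO sample and in NSC replicate 1, and 79.6% in NSC replicate 2, where NM_001306162 held the other 20.4% at a low level of the gene.

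**Figure D3:**
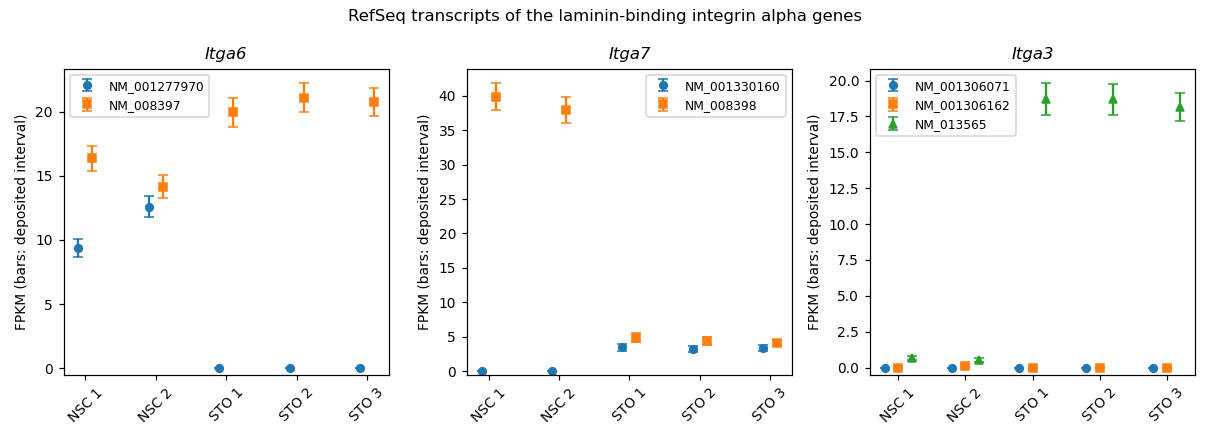
FPKM of each RefSeq transcript of Itga6, Itga7 and Itga3 in each sample, with the deposited Cufflinks interval as bars. NM_001277970 of Itga6 stands at 9.37 and 12.6 FPKM in NSCs and at 0 in STO cells, and NM_001330160 of Itga7 stands at 0 in NSCs and between 3.22 and 3.45 FPKM in STO cells.

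Among the α chains that recognise the RGD motif of fibronectin and vitronectin, Itga5 and Itgav dominated. Itga5, the main fibronectin receptor chain (chr15:103174718-103197222), had 4.75 and 4.50 FPKM in NSCs and 22.0, 21.4 and 21.0 FPKM in STO cells, 4.64-fold higher (difference 2.00 ± 0.05, limma adjusted p = 1.69e-07). Itgav (chr2:83564554-83647074), whose product pairs with several β chains, was the highest integrin α chain in both cell types, with 44.9 and 48.0 FPKM in NSCs and 33.8, 34.6 and 27.4 FPKM in STO cells. Its difference was −0.53 ± 0.11 (limma adjusted p = 0.00349, and 0.0749 without NSC replicate 2). Itga8, a receptor for nephronectin, had 1.84 and 1.50 FPKM in NSCs and 1.19, 1.70 and 1.57 FPKM in STO cells. Its samples overlapped, and it did not pass (difference −0.11, 95% interval −0.36 to 0.15, adjusted p = 0.379), but the sign flipped to 0.40 after quantile normalization (limma adjusted p = 0.0319). Itga2b, the platelet fibrinogen receptor chain, had 0.379 and 0.439 FPKM in NSCs and 1.39, 1.45 and 1.62 in STO cells (difference 0.82 ± 0.06). Its usual partner Itgb3 was at 0.182 ± 0.0378 FPKM in NSCs and 0.191 ± 0.0221 in STO cells. Of 4 platelet markers, 0 reached 1 FPKM in either cell type, their sums being 0.162 to 0.543 FPKM in NSCs and 0.287 to 0.715 in STO cells. The NSC sums were all Pf4, which was listed at 0 in STO cells. The STO sums were all Ppbp, which was listed at 0 in NSCs and so was higher in STO cells, as Itga2b was. Gp9 and Gp1bb were at 0 in all samples.

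The collagen-binding α chains were low throughout. Itga1 had 3.10 and 2.70 FPKM in NSCs and 2.43, 2.43 and 2.41 FPKM in STO cells, a small difference (−0.19 ± 0.06, limma adjusted p = 0.0255) whose sign flipped to 0.051 after quantile normalization (adjusted p = 0.533) and which did not pass when any STO replicate was left out (adjusted p = 0.0597 to 0.0648) or with the replicate number as a block (0.0784). Its neighbour Itga2, 26.0 kb away on chromosome 13, had 0.957 and 0.846 FPKM in NSCs and 0.0210 to 0.0414 FPKM in STO cells. Itga10 stayed at 0.0864 to 0.237 FPKM over all samples, and Itga11 at most at 0.0708 FPKM.

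Itga4 and Itga9, α chains that bind VCAM1, fibronectin and tenascin and serve migrating cells, were seen only at trace level or at 0 in STO cells. Itga4 (chr2:79095583-79173271) had 1.96 and 2.05 FPKM in NSCs and 0, 0.00393 and 0.00296 FPKM in STO cells, with less than 1 fragment implied in each (difference −1.58 ± 0.04, limma adjusted p = 1.41e-07). Itga9 had 0.813 and 0.742 FPKM in NSCs and was listed at 0 in all STO samples. Itga4 overlaps Cerkl on the opposite strand, and Itga7, Itga8, Itgav, Lamb1 and Lamc1 likewise overlap an annotated gene or pseudogene there, as do, of the genes under 1 FPKM, Itga9, Itgad, Itgae, Itgb4, Lama2, Lama3 and Lamc3. On the same strand, Itga1 overlaps Pelo, Itga2b overlaps AL596258.1 and Itga7 overlaps a U6 RNA gene. The libraries were stranded but the strand setting of the quantification is not given in the sources used here, so reads of such pairs might not have been told apart. The 5 leukocyte α chains, Itgad, Itgae, Itgal, Itgam and Itgax, stayed at or under 0.0635 FPKM in every sample, and Itgad was listed at 0 in all 5. Itgam, Itgax and Itgad lie side by side on chromosome 7, with 11.1 and 23.3 kb between them.

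In order of level, the integrin α chains of NSCs were Itgav (36.9% ± 1.54 of the summed FPKM), Itga7 (30.9% ± 1.31) and Itga6 (20.9% ± 0.42). In STO cells they were Itgav (30.1% ± 2.47), Itga5 (20.3% ± 0.65), Itga6 (19.5% ± 1.07), Itga3 (17.5% ± 0.47) and Itga7 (7.37% ± 0.38), where Itga5 and Itga6 lay within about 1 SD of each other. The summed α chain level was 126 ± 0.84 FPKM in NSCs and 106 ± 4.58 in STO cells, a smaller difference than that of single chains such as Itga3 or Itga7. With only the highest transcript of each gene, the share of Itga6 in NSCs was 13.3% and that of Itga7 in STO cells 4.35%.

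Itgb1, the common partner of most α chains (chr8:131209554-131257479), was the most abundant of all 37 genes in both cell types. It had 185 and 200 FPKM in NSCs and 164, 167 and 171 FPKM in STO cells. The samples did not overlap, and the difference was small (−0.20 ± 0.06, limma adjusted p = 0.0188). It did not pass after quantile normalization (−0.06, adjusted p = 0.332) or without STO replicate 1 (adjusted p = 0.0707). Itgb1 made up 77.9% ± 0.23 of the summed β chain level in NSCs and 91.2% ± 0.22 in STO cells.

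Itgb8 and Itgb5, which pair with Itgav, took smaller shares in STO cells, Itgb8 1.04% ± 0.09 against 13.7% ± 0.13 in NSCs, and Itgb5 5.76% ± 0.07 against 8.16% ± 0.36. Itgb8, whose dimer with αv activates TGF-β and which is known from neural progenitors and astrocytes (chr12:120401276-120476749), had 32.7 and 35.1 FPKM in NSCs and 1.96, 1.71 and 2.03 FPKM in STO cells. Its mean was 17.8-fold higher in NSCs (difference −3.59 ± 0.07, limma adjusted p = 4.33e-08). This was the largest fall of the 19 genes on the log2(FPKM + 1) scale, but with a pseudocount of 0.1 Lama5 (−5.64) and Itga4 (−4.36), both near 0 in STO cells, fell more than Itgb8 (−4.09). Itgb5, a vitronectin receptor chain, had 18.7 and 21.6 FPKM in NSCs and 10.5, 10.6 and 10.6 FPKM in STO cells, 1.91-fold higher in NSCs (difference −0.87 ± 0.07). Itgb3 stayed between 0.156 and 0.209 FPKM in all samples, and Itgb6, the epithelial partner of αv, at most at 0.00906. Itgb4, which pairs with α6 in epithelial hemidesmosomes, was listed at 0 in all 5 samples.

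The leukocyte β chains Itgb7 and Itgb2 rose in STO cells without their α chains. Both reached the minimum level only in STO cells, so their differences and p-values are partly set by that filter. Without STO replicate 3, Itgb2 fell under this level and was not tested. Itgb7 had 0.0595 and 0.0760 FPKM in NSCs (about 5 and 7 fragments) and 2.54, 2.31 and 2.22 FPKM in STO cells (153 to 200 fragments), a difference of 1.65 ± 0.06 (limma adjusted p = 5.16e-07). Its partners Itga4 and Itgae were at means of 0.0023 and 0.0344 FPKM there. Itgb2 had 0.156 and 0.223 FPKM in NSCs and 1.01, 0.838 and 1.25 FPKM in STO cells (60 to 122 fragments), a difference of 0.77 ± 0.09 (limma adjusted p = 0.000229). Its partners Itgal and Itgad were listed at 0 in STO cells, and Itgam and Itgax reached at most 0.0110 FPKM. Of 6 leukocyte and microglia markers, 0 reached a mean of 1 FPKM in STO cells, where they summed to 1.09 to 1.26 FPKM. Most of this sum was Cd68, at 0.863 to 0.927 FPKM, whose mean was lower in STO cells (0.886) than in NSCs (2.62). Low means that were higher in STO cells were those of Csf1r (0.0164 FPKM in NSCs and 0.175 in STO cells) and Aif1 (0 and 0.0870). The same held for Cx3cr1 (0 and 0.0178) and Ptprc (0.00307 and 0.0135). Tyrobp was listed at 0 in all samples.

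**Figure D4:**
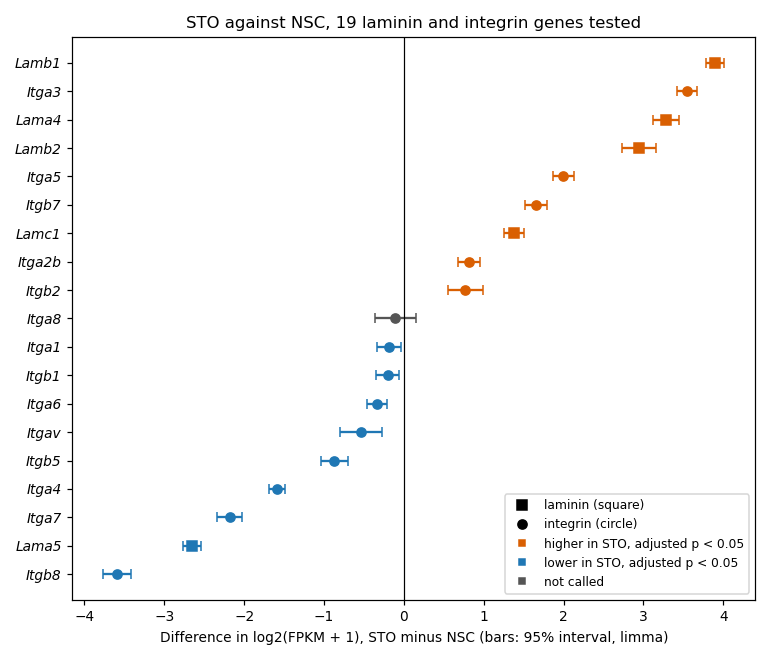
Difference between STO cells and NSCs in log2(FPKM + 1) for the 19 genes tested, with the 95% interval from limma, squares for laminins and circles for integrins. With this pseudocount of 1, Lamb1 (3.90), Itga3 (3.54), Lama4 (3.29) and Lamb2 (2.94) lie furthest to the right and Itgb8 (−3.59), Lama5 (−2.65) and Itga7 (−2.18) furthest to the left, whereas the interval of Itga8 spans 0.

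Of 24 known integrin dimers, drawn up in the same way as the trimers, 9 had both chains at a mean of at least 1 FPKM in NSCs and 9 in STO cells, 8 of them in both. Itga4 with Itgb1 reached this level only in NSCs, and Itga3 with Itgb1 only in STO cells. At a mean of at least 10 FPKM, 5 dimers had the RNA of both chains in NSCs and 5 in STO cells. In NSCs these were Itgb1 with Itga6, Itga7 or Itgav, and Itgav with Itgb5 or Itgb8. In STO cells these were Itgb1 with Itga3, Itga5, Itga6 or Itgav, and Itgav with Itgb5. In every dimer of Itgb1 on the list, the lower RNA level was that of the α chain and not that of the shared Itgb1. A chain shared by several dimers was counted in full for each of them. These are RNA levels, and no protein or assembled dimer was measured.

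Genes for other proteins of the basement membrane moved in both directions. All counts of the lists that follow stand beside the 85.7% of all genes tested that passed, so a count alone does not set a list apart. Of 12 basement membrane partners 10 were tested, and 6 were higher and 4 lower in STO cells (median difference 1.88). Nid1 and Nid2, the nidogens that bridge laminin and collagen IV, rose from 3.06 to 384 FPKM (difference 6.57 ± 0.06) and from 4.23 to 71.7 FPKM (3.80 ± 0.06), each being the mean of NSCs and of STO cells. Col18a1, which encodes a basement membrane collagen, fell from 68.8 to 1.01 FPKM (−5.12 ± 0.06), and Ntn4, a laminin-related netrin, from 31.6 to 1.15 FPKM (−3.91 ± 0.10). Of 14 other integrin ligands 12 were tested, with 8 higher and 4 lower in STO cells (median 2.37). Fn1, the gene of fibronectin, which is the ligand of the Itga5 and Itgb1 dimer, rose from 3.95 to 386 FPKM (6.29 ± 0.07), and Spp1, osteopontin, from 6.27 to 175 FPKM (4.61 ± 0.10). Npnt, the nephronectin gene, fell from 11.5 to 1.56 FPKM (−2.29 ± 0.05), and Tnc, tenascin C, from 182 to 98.9 FPKM (−0.88 ± 0.06).

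Laminin receptors other than integrins were mixed, with 4 higher and 2 lower in STO cells among 7 tested (median 0.50), beside 85.7% of all genes passing. Dag1, the gene of dystroglycan, did not pass (84.1 FPKM in NSCs and 84.7 in STO cells, adjusted p = 0.882 by limma) and was chosen after its value was seen. The proteoglycan genes Sdc2 and Sdc1 rose (1.54 ± 0.05 and 1.19 ± 0.07), whereas Sdc3, the syndecan of neural tissue, fell from 156 to 4.41 FPKM (−4.86 ± 0.06). Bcam, a receptor for the laminin α5 chain, had a mean of 2.56 FPKM in NSCs and was listed at 0 in STO cells (−1.82 ± 0.10). Lama5 was at trace level in STO cells, whereas Itga3, also a receptor for laminins with that chain, was higher there. A relation among these genes was not tested. Of 12 genes that build the laminin-binding sugar on dystroglycan, 11 were found in the files and tested, with 3 higher, 5 lower and 3 not called (median −0.05). B3galnt2 (1.93 ± 0.05) and Rxylt1 (0.63 ± 0.08) rose, and Pomk (−0.94 ± 0.05) fell.

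Inside the cell, 24 integrin activators and adaptors were listed and 19 tested, with 9 higher and 8 lower in STO cells (median 0.23), beside 85.7% of all genes passing. Apbb1ip, which recruits talin to integrins, rose from 0.491 to 24.5 FPKM (4.09 ± 0.08), and Actn1, an actin crosslinker of adhesion sites, rose from 7.75 to 119 FPKM (3.79 ± 0.12). Parvb (−1.69 ± 0.08) and Fermt2, a kindlin (−1.29 ± 0.05), fell. All 9 rises and 2 of the 8 falls were of at least 1 on the log2 scale, as were 17.1% (higher) and 21.3% (lower) of all genes tested. Of 10 genes of focal adhesion kinase signalling, 4 were higher and 4 lower (median 0.02). Nedd9 (2.12 ± 0.06) and Bcar1 (0.98 ± 0.07), both scaffolds phosphorylated after adhesion, rose, whereas the kinase genes Fyn, from 240 to 16.0 FPKM (−3.82 ± 0.06), and Ptk2b (−1.84 ± 0.09) fell. The 7 tetraspanins, membrane proteins that associate with laminin-binding integrins, had 4 higher and 3 lower (median 0.47), again beside 85.7% of all genes. Cd82 (2.59 ± 0.11) and Cd63 (1.34 ± 0.08) rose, and Tspan6 (−1.65 ± 0.08) and Cd81 (−1.24 ± 0.08) fell.

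**Figure D5:**
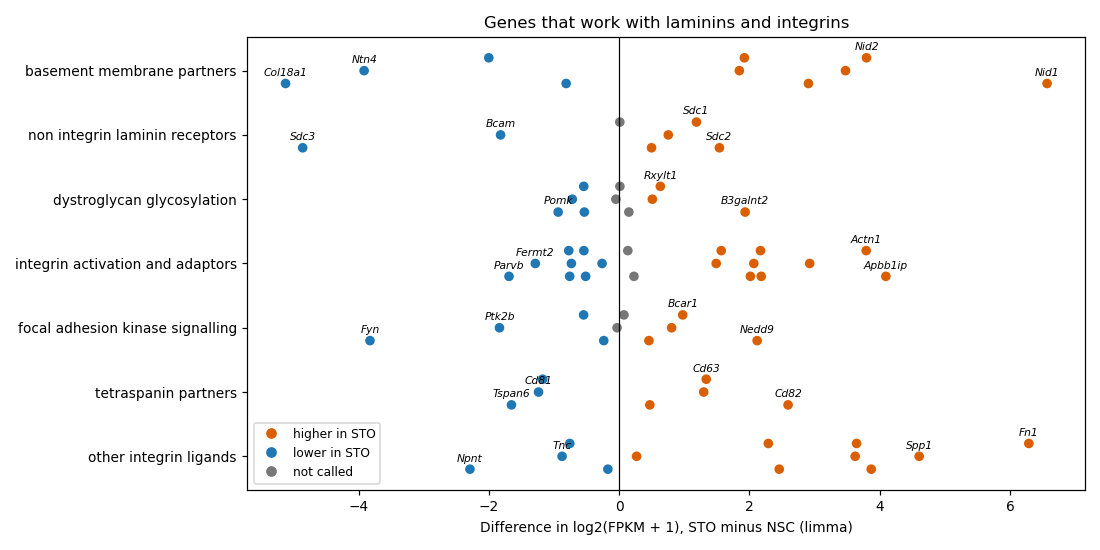
Difference in log2(FPKM + 1) between STO cells and NSCs for the tested genes, with 1 not shown, of 7 lists of genes that work with laminins and integrins, coloured by direction where limma passed, with the largest rises and falls of each list named. Nid1 (6.57) and Fn1 (6.29) lie furthest to the right and Col18a1 (−5.12) and Sdc3 (−4.86) furthest to the left, and every list has genes on both sides of 0.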

How the data were processed

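Total RNA of 5 samples was made into stranded mRNA libraries and sequenced as paired ends by the authors, who trimmed the reads, aligned them to mm9 with HISAT2 and quantified RefSeq transcripts with Cufflinks 2.2.1. The deposited values are FPKM for 40201 transcripts, with the bounds of the Cufflinks interval, also in FPKM. Depth was divided out by the authors and no counts were used. Fragments behind a value were estimated from the interval, taken as 2 SD of a Poisson count.

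Transcripts were named through a RefSeq table made for GRCm38.p6 (99.37% matched), and FPKM were summed per symbol. Genes with a mean of at least 1 FPKM in NSCs or STO cells were compared with limma 3.58.1 (trend) in R 4.3.3 on log2(FPKM + 1), all 5 samples, no covariate, with Benjamini-Hochberg adjustment over 12278 genes and a threshold of 0.05. The log scale with a pseudocount of 1 understates changes of low genes. The script was tested on simulated data. Fold values are ratios of mean FPKM.

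All laminin and integrin genes are counted, and the values of 1 of them and of 1 gene of another list are not reported here. From each other list, at most 2 called genes in either direction are named, those that moved furthest. The genes and lists were chosen with earlier results of these data known. Same-numbered samples were not shown to be paired. Coordinates are 1-based, from the deposited files, in mm9, and exons are from GENCODE vM1. The alternatives tried were other pseudocounts, minimum levels, normalizations, transcript choices, a replicate block and leaving out each sample.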

Additional observations from a re-analysis of the deposited data

How the results depend on the processing

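Of the 19 genes tested, 11 kept their direction and their call under each of the alternatives in which they were tested. Itga2b, Itga6, Itgb2 and Itgb5 lost their call only where a difference of at least 1 on the log2 scale was required. Their differences in the main comparison were smaller than that, so this loss was set by the requirement. With a minimum of 5 FPKM, 13 genes were tested, and Itga4 and Itgb7, which are among the 11, were not. Requiring a difference of at least 1 on the log2 scale left 2099 of all genes higher and 2613 lower in STO cells, and 7 laminin and integrin genes higher and 4 lower. Without a minimum level, 11 were higher and 15 lower in STO cells among 35 tested, the added falls including Lama1 (−0.93) and Itga9 (−0.83), both listed at 0 in STO cells. Quantile normalization gave 10 higher and 7 lower, and the sign of Itga1 (0.051) and Itga8 (0.40) turned; the cause was not tested. When each STO sample was left out in turn, all genes higher ranged from 4970 to 5060 and lower from 5188 to 5247. Laminin and integrin genes higher ranged from 8 to 9 and lower from 7 to 8. The 8 higher came without STO replicate 3, where 18 were tested because Itgb2 fell under the minimum level. Without an NSC replicate the lone NSC sample was assumed to vary like the STO samples.

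The groups share replicate numbers 1 and 2. Deviations from the group mean correlated at 0.0057 and 0.0635 for same-numbered samples and at −0.0635 to 0.0549 for different numbers. With 2 NSC samples, the deviations of NSC replicate 2 are those of replicate 1 with the sign turned, so these values cannot decide whether samples were paired. With the replicate block, 4988 genes were higher and 5250 lower, and 9 laminin and integrin genes were higher and 8 lower, Itga1 being the call lost.

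Depth limited the genes near 0: values such as those of Lama5 in STO cells rested on 2 to 5 fragments, and intervals cover counting error only.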
